A study of Mus musculus with 8 samples.

Results

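The 9 calcineurin genes described here were followed across tumors of tacrolimus and vehicle mice, out of 55487 genes with a value in the deposited files. They form a list of gene names, taken for their known part in the phosphatase: the catalytic subunits Ppp3ca, Ppp3cb and Ppp3cc, the regulatory subunit Ppp3r1, the inhibitors Rcan1, Rcan2, Rcan3 and Cabin1, and the anchoring protein Akap5. The series asks how intermittent tacrolimus (FK506) acts on T cells inside a melanoma. C57BL/6 mice, whose own immune system is intact, carried subcutaneous tumors of B16F10, a transplanted pigmented mouse melanoma line. The tacrolimus group (4 mice) received the drug at 3 mg/kg by intraperitoneal injection every 5 days, and the vehicle group (4 mice) received vehicle on the same schedule. Dosing started 7 to 9 days after the tumor cells were injected, at a tumor volume of about 50 mm3, and the tumors were harvested 6 days later than the first dose. RNA was sequenced from cells sorted as CD8+ tumor-infiltrating lymphocytes, 1 library per mouse. The age of the mice is not given in the sources used here, and no genetic alteration is named for either group.

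Calcineurin is a calcium-dependent protein phosphatase made of a catalytic A subunit and a regulatory B subunit, and it is switched on by calcium-loaded calmodulin. In T cells it removes phosphates from NFAT transcription factors after receptor stimulation, so that they enter the nucleus and start cytokine transcription. Tacrolimus binds the immunophilin encoded by Fkbp1a, and that complex docks on the A and B subunits and blocks access of substrates. The drug acts on the protein, so the mRNA levels given here do not measure phosphatase activity.

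The values are FPKM, which divide a gene's fragments by its transcript length and by the fragments of the library, and the depth was estimated at 1.57e+07 to 1.91e+07 fragments per library. The label names CD8+ T cells, but melanoma transcripts were far more abundant than T cell ones in every library. Cd8a, which defines the sorted cells, was at 33.2, 3.4, 18.3 and 19.6 FPKM in tacrolimus replicates 1 to 4, against 153, 36.9, 49.0 and 47.7 FPKM in vehicle replicates 1 to 4, while the melanoma gene Pmel was at 4273 FPKM or more in every tacrolimus library and 4223 FPKM or more in every vehicle library. The 15 T cell markers summed to 57.1 to 391 FPKM in tacrolimus libraries and 373 to 1668 FPKM in vehicle libraries, and none was at 0 in every library. Cd3e, a T cell receptor chain, was at 6.53 to 46.1 FPKM in tacrolimus libraries and 40.8 to 146 FPKM in vehicle libraries. The 12 macrophage and monocyte markers summed to 223 to 516 and 403 to 1586 FPKM in tacrolimus and vehicle libraries. Lyz2 and Csf1r, both of macrophages, were at 98.7 to 225 and 1.97 to 2.87 FPKM in tacrolimus libraries and at 170 to 876 and 2.45 to 12.9 FPKM in vehicle libraries, and the pigment gene Tyrp1 at 1366 to 1909 and 1575 to 2622 FPKM. All tested markers of dendritic cells (4), neutrophils (4), fibroblasts (5), muscle (2) and B cells (1) had a lower tacrolimus mean. So did 2 of 3 natural killer markers and 7 of 10 melanoma markers, while all 4 endothelial markers had a higher one. Of all genes tested 75.7% had a lower tacrolimus mean, so such short lists lean lower in any case. Vehicle replicate 1 held the highest T cell and macrophage sums of all libraries and stood apart, so values without it are given where they matter. In such mixed bulk RNA, fewer cells of a type and less RNA per cell cannot be told apart, and a calcineurin transcript may come from any of these cells.

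Of the 9 members, 7 reached the minimum for testing (at least 4 libraries with 1 FPKM), and Rcan2 and Akap5 did not. The tested members were compared in limma across 13032 genes on the log2(FPKM + 1) scale, with Benjamini-Hochberg adjustment over all of them. None of the 7 passed an adjusted p of 0.05, with adjusted p values between 0.233 and 0.939, and no gene of the 13032 did (0.00%). At an unadjusted p under 0.05, Ppp3cc and Ppp3r1 were lower in the tacrolimus group, 2 of 7 members, where 15.8% of all genes tested were lower at that level and 17.4% differed in either direction. In 6 of the 7 members the tacrolimus mean was lower, as it was in 75.7% of all genes tested. The median log2 difference was -0.30 over the 7 members and -0.19 over all genes tested, so each difference is also given relative to that median.

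**Figure D1:**
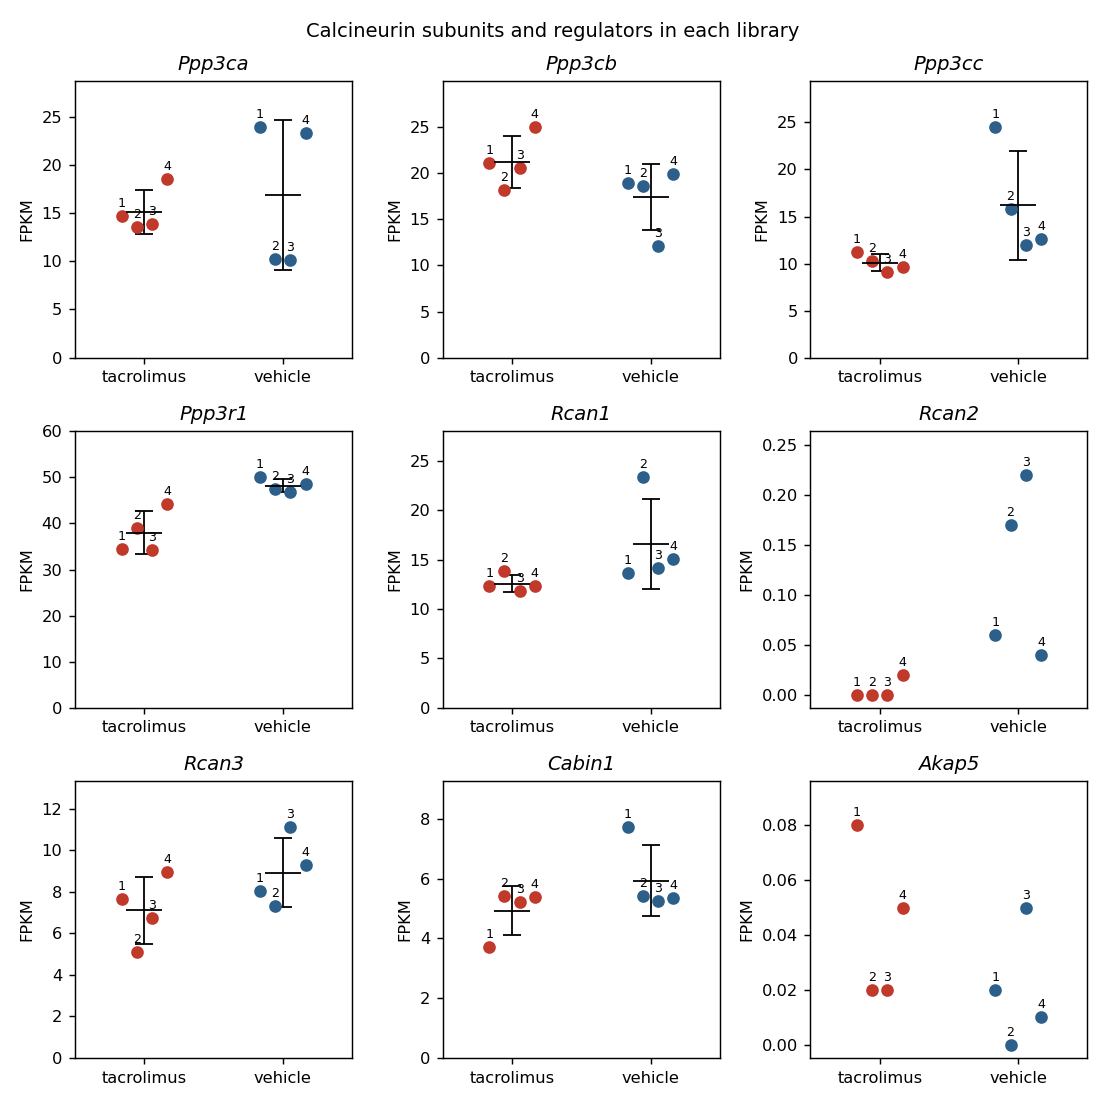
FPKM of each calcineurin gene in every library, with tacrolimus libraries in red and vehicle libraries in blue, numbered by replicate; lines are the mean and SD (n = 4 each) for the 7 genes that were tested. All 4 tacrolimus libraries lie below all 4 vehicle libraries for Ppp3cc, Ppp3r1 and the barely detected Rcan2. The same was seen in 10.2% of all genes tested. Of 7280 genes below the minimum with a value above 0 in at least 4 libraries, it was seen in 2.60%.

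Ppp3ca, the alpha catalytic subunit and a main isoform of brain and T cells (ENSMUSG00000028161; GRCm38 chromosome 3, 136670124 to 136937727, plus strand), was at 14.7, 13.5, 13.8 and 18.5 FPKM in tacrolimus replicates 1 to 4, against 23.9, 10.2, 10.1 and 23.3 FPKM in vehicle replicates 1 to 4. The vehicle libraries fell into a high and a low pair on either side of the tacrolimus libraries, which lay close together. The means were 15.1 ± 2.31 and 16.9 ± 7.75 FPKM in tacrolimus and vehicle libraries (SD, n = 4 each). The log2 difference was -0.05 (SE 0.29, 95% interval -0.70 to 0.60, limma adjusted p = 0.939), or 0.14 above the median gene, and its sign turned to 0.16 under median-of-ratios scaling and to 0.14 and 0.13 without vehicle replicate 1 or 4.

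Ppp3cb, the beta catalytic subunit, which is expressed broadly and is a main isoform of T cells (ENSMUSG00000021816; chromosome 14, 20499364 to 20546573, minus strand), was the only tested member with a higher tacrolimus mean. It was at 21.1, 18.2, 20.6 and 24.99 FPKM in tacrolimus replicates 1 to 4, against 18.9, 18.6, 12.1 and 19.9 FPKM in vehicle replicates 1 to 4. The groups overlapped, because tacrolimus replicate 2 lay below 3 vehicle libraries. The log2 difference was 0.29 (SE 0.18, 95% interval -0.12 to 0.70, limma adjusted p = 0.425), or 0.48 above the median gene, and 92.6% of genes tested had a lower difference. Under median-of-ratios scaling it was 0.50 (limma adjusted p = 0.413). Without vehicle replicate 3, its lowest library, the difference was 0.13.

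Ppp3cc, the gamma catalytic subunit, best known from testis, where it is abundant (ENSMUSG00000022092; chromosome 14, 70217865 to 70289471, minus strand), was at 11.2, 10.3, 9.10 and 9.63 FPKM in tacrolimus replicates 1 to 4, against 24.5, 15.8, 11.95 and 12.6 FPKM in vehicle replicates 1 to 4. In the deposited values every tacrolimus library lay below every vehicle library. Such separation with the tacrolimus group lower was seen in 10.2% of all genes tested, so it does not set Ppp3cc apart. The means were 10.1 ± 0.90 and 16.2 ± 5.79 FPKM in tacrolimus and vehicle libraries (SD, n = 4 each), and the log2 difference was -0.58 (SE 0.22, 95% interval -1.08 to -0.09, limma adjusted p = 0.234; exact two-sided permutation p = 0.0286, the smallest that 4 against 4 mice allow). It was -0.39 relative to the median gene, -0.37 under median-of-ratios scaling (limma adjusted p = 0.549) and -0.38 without vehicle replicate 1. Median-of-ratios scaling divides tacrolimus replicate 1 by 0.869 and vehicle replicate 3 by 1.04. Tacrolimus replicate 1 then lies above vehicle replicate 3, so the groups overlap. T cell markers moved in the same direction: 13 of 15 were lower at an unadjusted p under 0.05, with a median log2 difference of -1.78. So did macrophage and monocyte markers, 7 of 12 at that level, with a median of -1.06. Of all genes tested 15.8% were lower at that level, with a median of -0.19. The part of either in the Ppp3cc difference was not tested.

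Since a share within a library does not depend on its scaling, the make-up of the catalytic pool was also compared. Ppp3cb held 44.9%, 43.2%, 47.3% and 47.0% of the summed catalytic FPKM in tacrolimus replicates 1 to 4, against 28.1%, 41.7%, 35.4% and 35.7% in vehicle replicates 1 to 4. It was thus the leading catalytic transcript in every tacrolimus library, and its share there was above that of each vehicle library. How often a gene's share of such a sum separates the groups among other genes was not tested. The mean share was 45.6 ± 1.91% in tacrolimus libraries and 35.3 ± 5.57% in vehicle libraries (SD, n = 4 each), a difference of 10.4 percentage points that ran from 8.0 to 12.5 when each library was left out in turn. Ppp3cc held 18.1% to 24.6% in tacrolimus libraries and 22.5% to 36.4% in vehicle libraries, overlapping through vehicle replicate 4. Ppp3ca held 32.5 ± 1.60% and 32.4 ± 8.04% of the pool in tacrolimus and vehicle libraries.

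**Figure D2:**
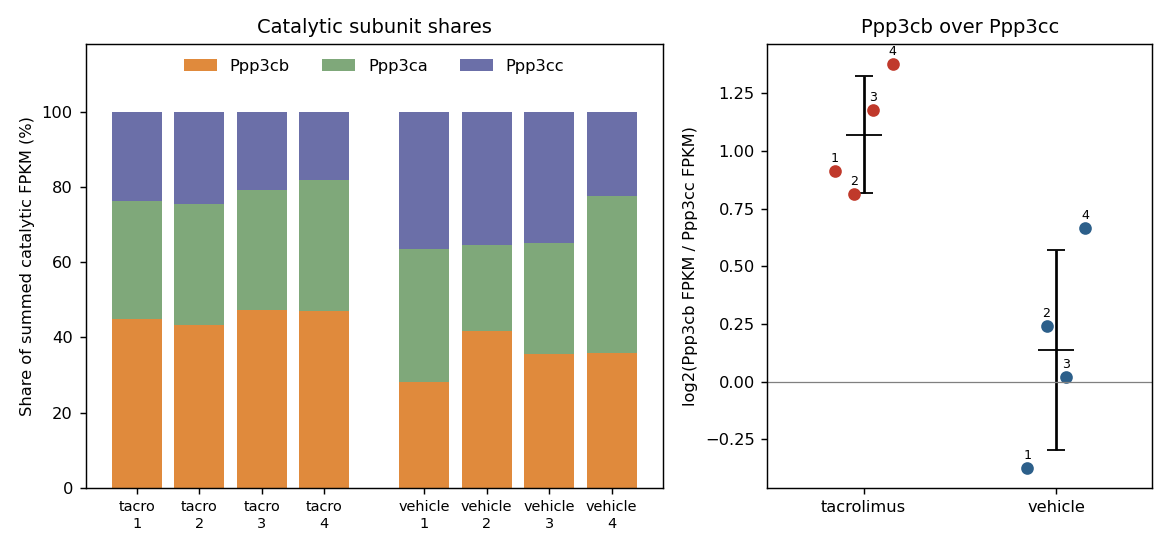
Left, share of Ppp3cb, Ppp3ca and Ppp3cc in their summed FPKM (percent) in each library; right, log2 ratio of Ppp3cb to Ppp3cc FPKM by group, numbered by replicate, with mean and SD (n = 4 each). The Ppp3cb share lies between 43.2% and 47.3% in tacrolimus libraries and between 28.1% and 41.7% in vehicle libraries.

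The log2 ratio of Ppp3cb to Ppp3cc was 0.91, 0.81, 1.18 and 1.38 in tacrolimus replicates 1 to 4, against -0.37, 0.24, 0.02 and 0.67 in vehicle replicates 1 to 4. Of the 21 ratios between tested members, 3 separated the groups, and Ppp3cb was the numerator in all 3, over Ppp3cc, Ppp3r1 and Rcan3. The ratio of Ppp3cb to any other gene was higher without overlap in the tacrolimus libraries for 21.7% of 12685 genes, so these ratios are not particular to calcineurin partners. The catalytic sum itself was 46.4 ± 4.95 FPKM in tacrolimus libraries and 50.5 ± 14.3 FPKM in vehicle libraries (SD, n = 4 each), and the groups overlapped.

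Because Ppp3cb was the member with the highest difference, its promoter is shown, from 250 bases before to 50 bases after the RefSeq start (GRCm38.p6, chr14:20546524-20546823, minus strand). Capitals mark GGAAA or its reverse complement TTTCC, the core letters to which NFAT factors bind.
Ppp3cb promoter: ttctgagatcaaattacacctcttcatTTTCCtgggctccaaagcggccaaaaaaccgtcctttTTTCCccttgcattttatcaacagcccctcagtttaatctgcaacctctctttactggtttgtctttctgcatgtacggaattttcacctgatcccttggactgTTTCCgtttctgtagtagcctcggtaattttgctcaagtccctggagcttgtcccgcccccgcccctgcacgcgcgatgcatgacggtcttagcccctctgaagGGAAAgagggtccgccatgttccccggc
It holds 4 such matches on both strands together, a count reached by 2.65% of 32851 RefSeq promoters of that length, and 61.3% of them hold at least 1. A match is only a run of letters, and binding was not measured.

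Ppp3r1, the calcium-binding B subunit that all catalytic isoforms share outside the testis (ENSMUSG00000033953; chromosome 11, 17159263 to 17200375, plus strand), was the most abundant member. It was at 34.5, 39.1, 34.2 and 44.2 FPKM in tacrolimus replicates 1 to 4, against 50.0, 47.5, 46.9 and 48.5 FPKM in vehicle replicates 1 to 4. In the deposited values the vehicle libraries were nearly level, with a coefficient of variation of 2.85%. All tacrolimus libraries lay below them there, most closely replicate 4. As for Ppp3cc, this separation does not set the gene apart, since 10.2% of all genes tested separated with tacrolimus lower. The means were 38.0 ± 4.70 and 48.2 ± 1.37 FPKM in tacrolimus and vehicle libraries (SD, n = 4 each). The log2 difference was -0.34 (SE 0.13, 95% interval -0.63 to -0.06, limma adjusted p = 0.233; exact two-sided permutation p = 0.0286). Relative to the median gene it was -0.15, and under median-of-ratios scaling -0.12 (limma adjusted p = 0.635). That scaling divides vehicle replicate 2 by 1.22 and tacrolimus replicate 4 by 1.05. Vehicle replicate 2 then lies below tacrolimus replicate 4, so the groups overlap and the vehicle libraries are no longer level. In the annotation 13.0% of the 50-base windows of Ppp3r1 transcripts also occur in the overlapping gene Wdr92 on the same strand, which was at 7.40 to 11.4 FPKM in tacrolimus libraries and 7.56 to 13.0 FPKM in vehicle libraries, so part of either value is uncertain.

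Ppp3r1 stood at 0.735, 0.931, 0.786 and 0.832 times the catalytic sum in tacrolimus replicates 1 to 4, and at 0.743, 1.07, 1.37 and 0.869 times in vehicle replicates 1 to 4. These ratios of FPKM overlapped between the groups. The testis form of the B subunit, Ppp3r2, did not reach the minimum for testing.

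Rcan1 encodes a regulator that binds and inhibits calcineurin, and one of its transcripts is a known feedback target of NFAT (ENSMUSG00000022951; chromosome 16, 92391953 to 92470867, minus strand). It was at 12.3, 13.9, 11.8 and 12.3 FPKM in tacrolimus replicates 1 to 4, against 13.6, 23.3, 14.2 and 15.0 FPKM in vehicle replicates 1 to 4. Vehicle replicate 2 was far above all other libraries, and the groups overlapped only through tacrolimus replicate 2. The means were 12.6 ± 0.89 and 16.5 ± 4.56 FPKM in tacrolimus and vehicle libraries (SD, n = 4 each), with a log2 difference of -0.34 (SE 0.19, 95% interval -0.75 to 0.07, limma adjusted p = 0.359; exact two-sided permutation p = 0.0571). Relative to the median gene the difference was -0.15. Without vehicle replicate 2 it was -0.17, and under median-of-ratios scaling it was -0.12. Set against the B subunit, the log2 ratio of Rcan1 to Ppp3r1 was -1.59 ± 0.17 in tacrolimus libraries and -1.58 ± 0.38 in vehicle libraries (SD, n = 4 each).

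The RefSeq table lists 2 start sites for Rcan1, and both promoters are shown because the downstream one belongs to the short transcript known to respond to calcineurin, while the deposited value is 1 per gene and does not separate them. Capitals again mark GGAAA or TTTCC (GRCm38.p6, minus strand; the upstream promoter is chr16:92466120-92466419 and the downstream one chr16:92400029-92400328).
Rcan1 upstream promoter: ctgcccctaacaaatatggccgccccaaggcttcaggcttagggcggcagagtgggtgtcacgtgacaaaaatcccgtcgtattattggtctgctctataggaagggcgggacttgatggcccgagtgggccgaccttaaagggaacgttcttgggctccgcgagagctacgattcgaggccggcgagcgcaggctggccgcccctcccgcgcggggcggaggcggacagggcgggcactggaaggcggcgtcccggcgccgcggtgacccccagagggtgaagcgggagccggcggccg
Rcan1 downstream promoter: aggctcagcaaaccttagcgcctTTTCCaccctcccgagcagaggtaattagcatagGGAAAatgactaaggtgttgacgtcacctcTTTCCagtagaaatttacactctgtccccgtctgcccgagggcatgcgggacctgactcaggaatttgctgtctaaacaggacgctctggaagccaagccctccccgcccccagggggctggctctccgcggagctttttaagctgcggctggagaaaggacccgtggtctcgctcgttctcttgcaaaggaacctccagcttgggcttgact
The downstream promoter holds 3 matches to GGAAA on either strand, a count reached by 9.42% of RefSeq promoters, and the upstream one holds 0. It also holds 1 match to TGACTCA (searched with its reverse complement TGAGTCA), the letters to which AP-1 binds, found in 5.20% of promoters, and 1 to TGACGTCA, the palindromic cyclic AMP response element, found in 1.79%. None of these matches shares a base with a GGAAA match.

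Rcan3, a family member that also binds calcineurin (ENSMUSG00000059713; chromosome 4, 135412308 to 135433853, minus strand), was at 7.65, 5.09, 6.73 and 8.96 FPKM in tacrolimus replicates 1 to 4, against 8.02, 7.30, 11.1 and 9.27 FPKM in vehicle replicates 1 to 4. The groups overlapped, and the log2 difference was -0.30 (SE 0.20, 95% interval -0.75 to 0.15, limma adjusted p = 0.447). It was -0.10 relative to the median gene, and ran from -0.41 without tacrolimus replicate 4 to -0.17 without tacrolimus replicate 2, the lowest library. Rcan1 exceeded Rcan3 in every library, by 1.38 to 2.72 times in tacrolimus libraries and 1.28 to 3.20 times in vehicle libraries.

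Rcan2, the family member known from brain and heart (ENSMUSG00000039601; chromosome 17, 43801351 to 44039516, plus strand), was barely detected. It was listed at 0 in tacrolimus replicates 1 to 3 and at 0.02 FPKM in replicate 4, against 0.06, 0.17, 0.22 and 0.04 FPKM in vehicle replicates 1 to 4. On its longest annotated transcript these correspond to an estimated 0.959 fragment in the tacrolimus library with a value, and to 1.99 to 10.9 fragments in the vehicle libraries, where 3 fragments would give 0.0511 to 0.0625 FPKM. The groups did not overlap (exact two-sided permutation p = 0.0286, the smallest possible), as in 2.60% of the 7280 genes below the minimum that had a value above 0 in at least 4 libraries. On the log2 scale its difference depended on the pseudocount, at -0.16 with 1, -0.29 with 0.5 and -1.003 with 0.1. A linear model with no filter on low values gave a limma adjusted p of 0.417. At such depth the difference rests on few fragments, and Rcan2 was not detectable in 3 libraries rather than shown to be absent.

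Cabin1, a calcineurin-binding inhibitor that also represses MEF2 factors and sits in the HIRA histone chaperone complex (ENSMUSG00000020196; chromosome 10, 75646112 to 75764341, minus strand), was at 3.70, 5.43, 5.20 and 5.37 FPKM in tacrolimus replicates 1 to 4, against 7.71, 5.40, 5.24 and 5.36 FPKM in vehicle replicates 1 to 4. The other 6 libraries were level, while tacrolimus replicate 1 lay below them and vehicle replicate 1 above. The log2 difference was -0.22 (SE 0.19, 95% interval -0.65 to 0.21, limma adjusted p = 0.545) and -0.03 relative to the median gene. It was -0.12 without tacrolimus replicate 1 and -0.11 without vehicle replicate 1. Of its partners, Hira was at 6.65 ± 0.69 and 8.20 ± 1.80 FPKM in tacrolimus and vehicle libraries, and Ubn1 at 9.51 ± 0.70 and 11.6 ± 1.83 FPKM. Asf1a, a histone chaperone, was at 53.0 ± 10.5 and 61.8 ± 13.5 FPKM. Ubn2 had the opposite sign, at 18.9 ± 2.52 and 12.9 ± 3.73 FPKM (SD, n = 4 each; log2 difference 0.55, SE 0.21, limma unadjusted p = 0.0266, adjusted p = 0.239). Its groups overlapped, at 16.4 to 21.7 FPKM in tacrolimus and 8.47 to 17.3 FPKM in vehicle libraries (exact two-sided permutation p = 0.0857). Of all genes 1.60% were higher at an unadjusted p under 0.05, 208 of 13032. Under median-of-ratios scaling 741 were.

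Akap5, which anchors calcineurin and protein kinase A at the membrane (ENSMUSG00000021057; chromosome 12, 76324891 to 76334153, plus strand), was at 0.08, 0.02, 0.02 and 0.05 FPKM in tacrolimus replicates 1 to 4, against 0.02, 0.00, 0.05 and 0.01 FPKM in vehicle replicates 1 to 4. These amount to an estimated 2.03 to 8.29 fragments per tacrolimus library and at most 5.22 per vehicle library, and the groups overlapped (exact two-sided permutation p = 0.314). No difference was detectable at this depth.

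Neighbours in the order of mean level over all 8 libraries were compared, so the pairs and their directions came from these same values. The sign-flip p values therefore describe the order and are no independent test of it. Ppp3r1 ranked first of the 9 in every library. It was above Ppp3cb in 8 of 8 libraries (exact sign-flip p = 0.00781, adjusted p = 0.0208 over 8 neighbouring pairs), Ppp3cc above Rcan3 in 8 of 8 (adjusted p = 0.0208), and Rcan3 above Cabin1 in 7 of 8 (exact sign-flip p = 0.0234, adjusted p = 0.0469). Over the 8 libraries of both groups, the neighbours Ppp3cb, Ppp3ca, Rcan1 and Ppp3cc did not differ beyond their spread (exact sign-flip tests, adjusted p = 0.113, 0.695 and 0.375 from the top), and neither did Rcan2 and Akap5 (exact sign-flip test, adjusted p = 0.438). Within the groups the middle of the order was not the same: Ppp3cb ranked 2 and Ppp3cc 5 in each of the 4 tacrolimus libraries, while in vehicle replicates 1 to 4 Ppp3cb ranked 4, 3, 3 and 3 and Ppp3cc 2, 4, 4 and 5. The log2 ratio of Ppp3cb to Ppp3ca was 0.43 to 0.57 in tacrolimus libraries and -0.34 to 0.86 in vehicle libraries. Among genes tested, Ppp3r1 ranked above 79.1% to 82.5% of the others by library and Cabin1 above 25.7% to 38.5%.

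The other genes of the pathway, taken from lists chosen by function, also had no member past an adjusted p of 0.05 in limma. Their counts stand beside those of all genes tested, of which 75.7% had a lower tacrolimus mean, 15.8% were lower at an unadjusted p under 0.05 and 10.2% separated the groups with tacrolimus lower. Of the 4 NFAT factors, 3 were tested and all had a lower tacrolimus mean. Nfatc1 was at 2.84 ± 1.68 FPKM in tacrolimus libraries and 8.55 ± 4.34 FPKM in vehicle libraries (log2 difference -1.31, SE 0.37, limma adjusted p = 0.193), and its groups did not overlap. Nfatc3 was at 9.48 ± 1.44 and 13.0 ± 2.61 FPKM and Nfatc2 at 14.6 ± 3.74 and 16.6 ± 1.52 FPKM in tacrolimus and vehicle libraries. The NFAT sum of 19.6 to 32.1 FPKM in tacrolimus libraries lay below that of 33.6 to 47.0 FPKM in vehicle libraries. The sum of the kinases that oppose calcineurin at NFAT separated in the same way, at 198 to 230 and 245 to 324 FPKM. So did that of the protein kinase A genes and partners, at 221 to 271 and 278 to 347 FPKM. The sums of the other pathway lists overlapped, and how often sums of other genes separate was not tested. T cell and macrophage markers, with median log2 differences of -1.78 and -1.06, had lower means in all 15 and all 12 genes, and their part in the NFAT values was not tested.

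All 8 kinases that oppose calcineurin by phosphorylating NFAT had a lower tacrolimus mean, 3 of them at an unadjusted p under 0.05, with a median log2 difference of -0.34, against -0.19 over all genes tested. Csnk1a1, a casein kinase, was at 75.7 ± 4.44 FPKM in tacrolimus libraries and 96.5 ± 7.67 FPKM in vehicle libraries, Csnk1d at 37.9 ± 5.77 and 51.6 ± 7.32 FPKM, and Gsk3a, a glycogen synthase kinase, at 22.3 ± 4.26 and 29.8 ± 4.07 FPKM (SD, n = 4 each).

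Among other calcineurin-binding proteins 6 of 12 were tested, and Chp1, a calcineurin B homolog, was lower at an unadjusted p under 0.05, at 21.97 ± 3.25 and 30.4 ± 3.39 FPKM in tacrolimus and vehicle libraries. Fkbp1a, the drug's own receptor, was at 315 ± 30.8 and 356 ± 63.3 FPKM, many times the level of any calcineurin subunit. Ppia, the cyclosporin receptor cyclophilin A, was at 4179 ± 386 and 4006 ± 907 FPKM in tacrolimus and vehicle libraries. Akap1, a mitochondrial anchor, was at 10.0 ± 1.94 and 12.1 ± 2.65 FPKM. The calmodulin genes Calm2 and Calm3 were at 572 ± 56.7 and 587 ± 124 FPKM and at 42.6 ± 4.08 and 54.1 ± 11.2 FPKM in tacrolimus and vehicle libraries (SD, n = 4 each), with neither at an unadjusted p under 0.05.

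Of 10 tested substrates and effectors, 7 had a lower tacrolimus mean and 1, the coactivator gene Crtc2, at an unadjusted p under 0.05 (16.0 ± 1.91 and 21.4 ± 1.41 FPKM in tacrolimus and vehicle libraries). Tfeb, a lysosomal transcription factor that calcineurin dephosphorylates, was at 16.0 ± 2.96 and 20.98 ± 3.61 FPKM, and Mef2a at 13.4 ± 1.58 and 16.3 ± 2.81 FPKM in tacrolimus and vehicle libraries. Dnm1l, the mitochondrial fission protein, was at 24.96 ± 3.52 and 25.8 ± 4.87 FPKM. All 8 other PPP family catalytic subunits had a lower tacrolimus mean, with a median log2 difference of -0.24, against -0.19 over all genes tested, and Ppp4c (80.3 ± 10.9 and 110 ± 13.4 FPKM) and Ppp1ca (301 ± 26.5 and 388 ± 49.0 FPKM) were lower at an unadjusted p under 0.05. Ppp6c was at 38.5 ± 4.68 and 47.2 ± 6.96 FPKM in tacrolimus and vehicle libraries. Of 8 protein kinase A genes and partners, Adcy7, an adenylate cyclase of blood cells, was at 3.54 ± 1.09 and 8.20 ± 2.76 FPKM and Prkar1a at 172 ± 13.1 and 221 ± 21.8 FPKM in tacrolimus and vehicle libraries (SD, n = 4 each), both lower at an unadjusted p under 0.05. Prkacb, a catalytic subunit, was at 16.4 ± 3.37 and 21.2 ± 3.78 FPKM.

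**Figure D3:**
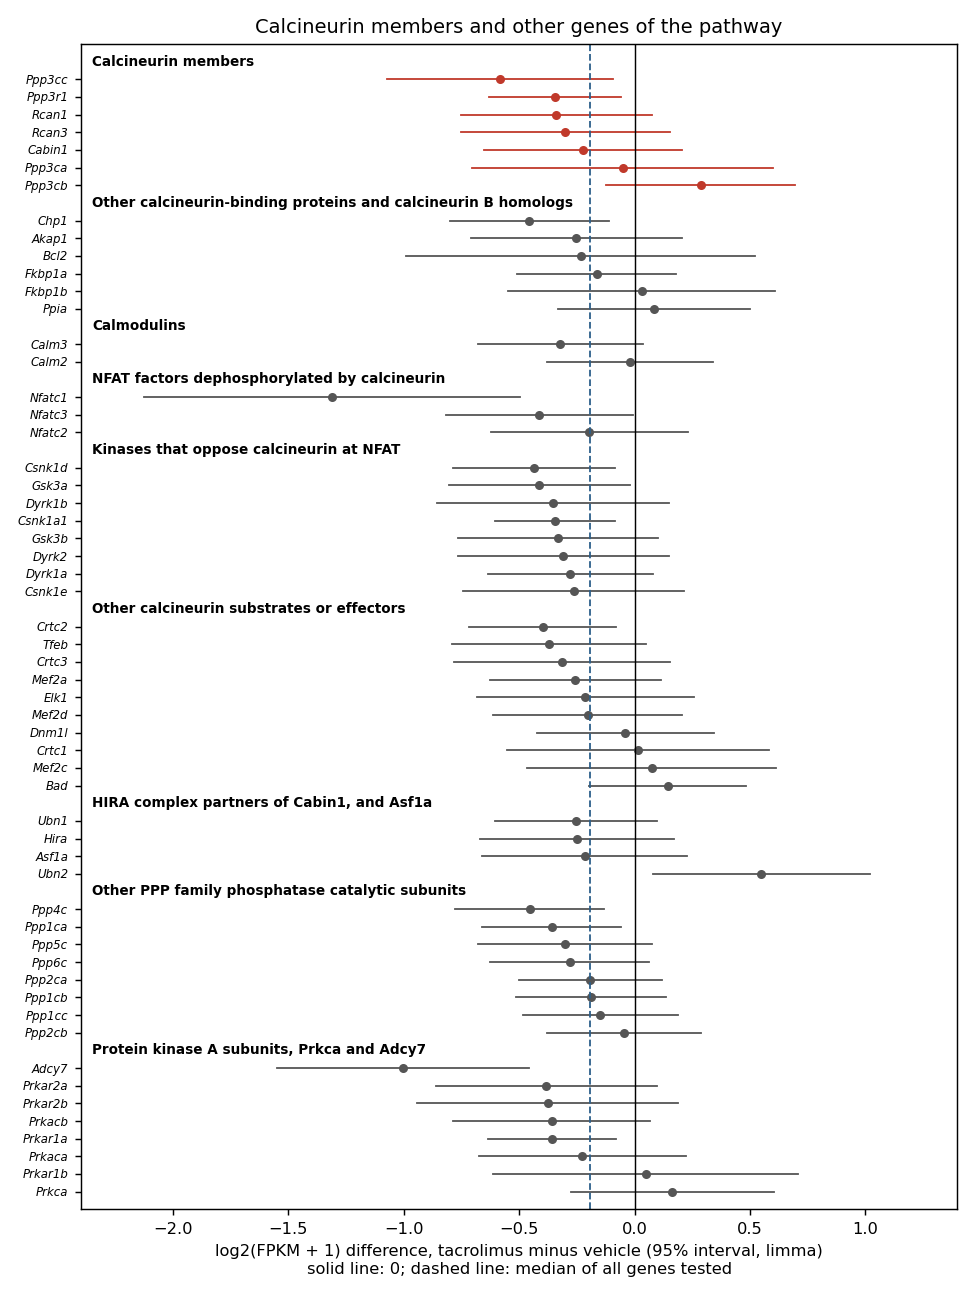
Difference in log2(FPKM + 1), tacrolimus minus vehicle, with its 95% interval from limma, for the 7 tested calcineurin members (red) and other tested pathway genes (grey); the dashed line is the median of all genes tested at -0.19. Ppp3cb at 0.29 is the only calcineurin member right of 0, and Nfatc1 at -1.31 and Ubn2 at 0.55 lie farthest from the dashed line on either side.

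Across the 8 libraries the members did not move as a unit. Pearson correlations of log2(FPKM + 1) between members, given as a description of libraries that also share their treatment group, ran from -0.38 for Ppp3ca with Rcan1 to 0.68 for Ppp3cc with Cabin1. Of 21 relations of a member with the level of T cell, macrophage or melanoma markers, none passed an adjusted p of 0.05. These tests pooled the libraries of both groups, so a difference between the groups enters them. Relations within a group were not tested. The closest was Ppp3cc with T cell markers (n = 8 libraries, Pearson r = 0.80, exact permutation p = 0.0211, adjusted p = 0.276). Its Spearman rho was 0.76 (exact permutation p = 0.0368, adjusted p = 0.242), and r was 0.65 without the 2 libraries of most extreme T cell level. With macrophage and monocyte markers Ppp3cc had r = 0.74 (exact permutation p = 0.0378, adjusted p = 0.276) and rho = 0.60 (exact permutation p = 0.132, adjusted p = 0.463). Without the 2 libraries of most extreme marker level r fell to 0.33. With melanoma markers Ppp3cc had r = -0.21 (exact permutation p = 0.651, adjusted p = 0.814), and 0.83 without such libraries. Rcan1 had r = 0.65 with melanoma markers (exact permutation p = 0.0448, adjusted p = 0.276), and 0.75 without such libraries. Ppp3cb had r = -0.20 with T cell markers (exact permutation p = 0.586, adjusted p = 0.814) and rho = -0.19 (exact permutation p = 0.665, adjusted p = 0.872). Without the 2 libraries of most extreme T cell level its r was -0.68.

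**Figure D4:**
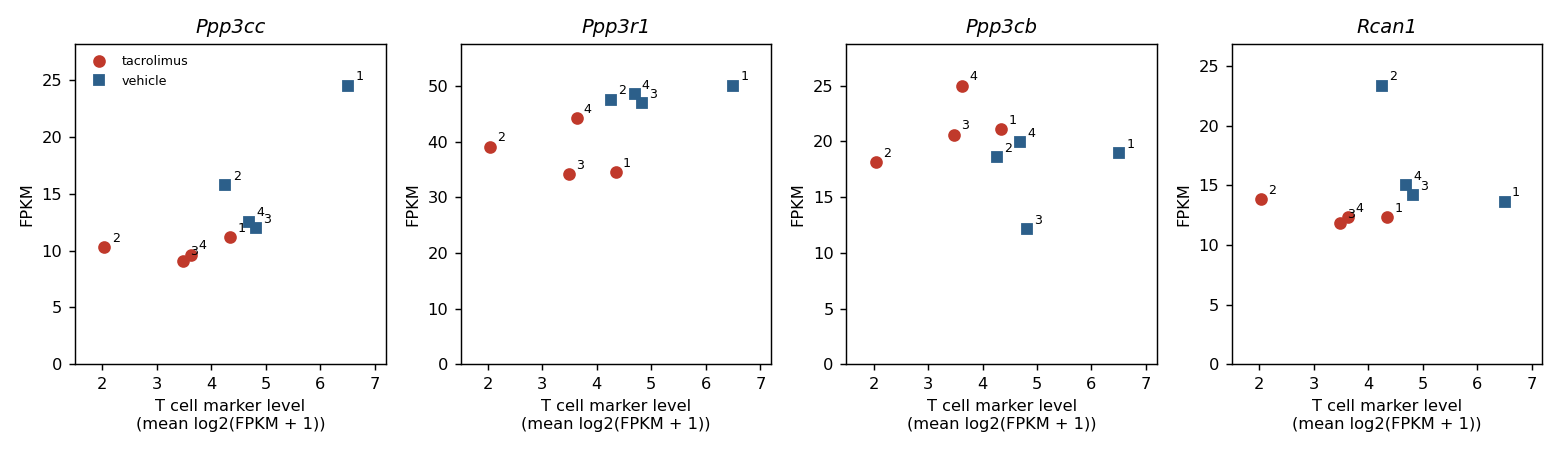
FPKM of Ppp3cc, Ppp3r1, Ppp3cb and Rcan1 against the mean log2(FPKM + 1) of 15 T cell markers in each library (tacrolimus red circles, vehicle blue squares, numbered by replicate). Vehicle replicate 1 has the highest T cell level and the highest Ppp3cc, and tacrolimus replicate 2 the lowest T cell level.

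The genes whose pattern over the 8 libraries was most like that of a member were found by Pearson correlation among 9545 named protein-coding genes. With so many genes and few libraries, high values are easily reached. They were Nipbl, Rock1 and Trps1 for Ppp3ca (r from 0.957 to 0.984), Utp23, Hmmr and Hmgn5 for Ppp3cb (0.874 to 0.915), and Arrdc1, Zfp263 and Csrnp1 for Ppp3cc (0.979 to 0.981). For Ppp3r1 they were Hsp90ab1, Slc25a51 and Smim14 (0.984 to 0.988), and for Rcan1 Taf12, Glmp and Sumf1 (0.97 to 0.983). For Rcan3 they were Dusp12, Dennd5b and Htt (0.904 to 0.968), and for Cabin1 Abracl, Calm3 and Frg1 (0.939 to 0.962). Ppp3cb had the weakest best match of the 7 members.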

How the data were processed

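RNA sequencing libraries of 4 tacrolimus and 4 vehicle mice were analysed, with groups and replicate numbers taken from the titles. HISAT2 (2.1.0), DESeq2 (1.24.0), RSEM (1.3.1) and the build GRCm38.p6 appear in the submitters' processing notes with no role or order, and whether counting used strand is not given in the sources used here. Antisense genes overlap Ppp3cb, Ppp3cc and Rcan1. The deposited values, 1 per gene with no unit in the header, were inferred to be FPKM, already scaled for length and library size by the authors. Low values of single-transcript genes lay on steps that gave the depth estimate, with 86.4% to 88.3% near a whole step (30% if evenly spread, tolerance 0.15 steps). Depth limits the precision of the low members, and fragment estimates cover counting error only.

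Symbols and coordinates came from GENCODE M21 by Ensembl identifier (55141 of 55487 matched), and promoters from RefSeq (7 of 9 members matched). Values were compared in limma 3.58.1 (R 4.3.3, mean-variance trend) as log2(FPKM + 1), treatment only, two-sided, and fold changes on this scale understate low genes. Exact permutation tests (scipy 1.17.1) used the 70 assignments. In simulated data with 13032 genes, 56 of 100 genes changed by 1 and 91 of 100 changed by 2 (log2) were recovered, with 5 false calls. The replicates are separate mice. The text names all members, the 3 tested genes with the smallest p and the highest-level gene of each pathway list, the 3 genes most alike per member, and reference genes of T cells, melanoma and macrophages; 1 gene that this rule names is not reported here. Members and lists were chosen with earlier results of these data known. Alternatives were other scalings, pseudocounts, filters, a replicate block, and each library left out. Marker lists for dendritic cells, neutrophils, B cells, natural killer cells, fibroblasts, endothelium and muscle were also computed.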

Additional observations from a re-analysis of the deposited data

Results flagged for a closer look

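In 40 groups of 4 libraries, 6 held a library whose gap to the next one exceeded Dixon's 95% critical value. That value flags about 1 in 20 independent groups of normally distributed values. The groups here include shares and ratios built from the same members, so their count cannot be set against that rate. Rcan1 was at 23.3 FPKM in vehicle replicate 2, far above the other vehicle libraries. Cabin1 was at 3.70 FPKM in tacrolimus replicate 1, below its group, and at 7.71 FPKM in vehicle replicate 1, above its group. Rcan2 was at 0.02 FPKM in tacrolimus replicate 4, the only library of its group not listed at 0, which is an estimated 0.959 fragment. With the rest of the group at 0, any value above 0 is flagged. The share of Ppp3cc in the catalytic sum was 22.5% in vehicle replicate 4, below the rest of its group. The log2 ratio of Rcan1 to Ppp3r1 was -1.84 in tacrolimus replicate 4, below the rest of its group.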

How the results depend on the processing

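The members' differences kept their direction under the other scalings, pseudocounts, filters, the replicate block and each library left out, except Ppp3ca, and none of the 7 tested members passed an adjusted p of 0.05 in limma under any of them. Ppp3ca turned to 0.16 under median-of-ratios and under upper-quartile scaling, and ran from -0.24 to 0.14 with a library left out (0.14 without vehicle replicate 1, 0.13 without vehicle replicate 4). The count of genes past an adjusted p of 0.05 was 0, and 0 to 1 with a library left out (1 without vehicle replicate 1). With the replicate number as a block it was 121. Same-numbered libraries deviated together in 2 of 4 pairs (correlations -0.02 to 0.28). Libraries of unlike number were not compared, so these correlations cannot decide whether mice were paired. No label says that a number pairs mice, so the number was not taken to pair them. At an unadjusted p under 0.05 there were 2264 genes, 1476 under median-of-ratios scaling (741 higher, 735 lower, against 208 and 2056) and 1501 under upper-quartile scaling (723 and 778), and 1512 to 2789 with a library left out. The median gene lay at 0.00567 (median-of-ratios scaling), 0.00458 (upper-quartile scaling) and -0.0482 (no filter on low values), against -0.19. The Rcan2 difference was -0.16 (-0.29 and -1.003 with pseudocounts of 0.5 and 0.1), with an adjusted p of 0.417 in limma when no filter was used, and -0.19 to -0.12 with a library left out, where the smallest possible exact p is 0.0571. The cause of these changes was not tested. The block was not run for Rcan2 and Akap5, and a filter of 0.1 FPKM in 4 libraries left both out. Depth limits what can be said of Rcan2 and Akap5.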
